A study of Saccharomyces cerevisiae with 4 samples.

Results

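The genes described here are 10 budding yeast genes that act against oxidants, found by their standard names among the 6782 gene rows of the deposited table: GSH1, GSH2, GLR1, GPX1, GPX2 and GTT1 of glutathione metabolism, the old yellow enzyme genes OYE2 and OYE3, and the superoxide dismutase genes SOD1 and SOD2. They were chosen by pathway and name, by a rule that uses no measured value, but with earlier results of these data known. All 10 had a row, and all 10 passed the filter on low values. The induced group was 2 cultures given 100 nM estradiol for 6 h, and the uninduced group was 2 cultures given the solvent DMSO for 6 h. Every culture was grown in log phase, was of the W303 strain background and carried 1 genomic copy of the construct 6xIAPP at LEU2, expressed from a promoter that responds to estradiol. IAPP is islet amyloid polypeptide, a hormone of pancreatic beta cells that can form amyloid, and the series title names the toxicity of 6xIAPP as its subject.

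No culture given estradiol without the construct was analysed here, so the hormone and the construct cannot be told apart, and the transcript of the construct was not analysed here. RNA came from whole cultures, so less RNA per cell and fewer cells with that RNA cannot be told apart. Levels are the authors' library-size-normalized read counts, headed CPM, and the reads recovered from them came to 11694161 and 14724917 in the induced libraries, against 15582338 and 10397606 in the uninduced libraries.

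Glutathione is a tripeptide that yeast makes in a pair of enzymatic steps, from glutamate and cysteine and then glycine. It reduces peroxides through glutathione peroxidases, is joined to foreign or reactive compounds by transferases, and is returned to its reduced form by glutathione reductase at the expense of NADPH. Old yellow enzymes are flavin-containing NADPH oxidoreductases that reduce the carbon double bond of unsaturated aldehydes and ketones, and superoxide dismutases turn superoxide into hydrogen peroxide and oxygen. Yap1 is the transcription factor best known for switching on many of these genes in yeast under peroxide.

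The genes did not move as 1 block. Both old yellow enzyme genes and the peroxidase gene GPX2 rose in the induced libraries, SOD2, GPX1 and GSH1 fell, and GSH2, GLR1, GTT1 and SOD1 were not called. The test was limma on log2(CPM + 1) with Benjamini-Hochberg adjustment over all 6037 genes tested, and a call is an adjusted p under 0.05. That is 3 of 10 higher and 3 of 10 lower, where 35.6% of all genes tested were called higher and 37.0% lower. The median difference of the 10 genes was 0.01 on the log2 scale and that of all genes tested was 0.00. The 2 groups did not overlap in 7 of the 10 genes, against 86.0% of all genes tested.

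**Figure D1:**
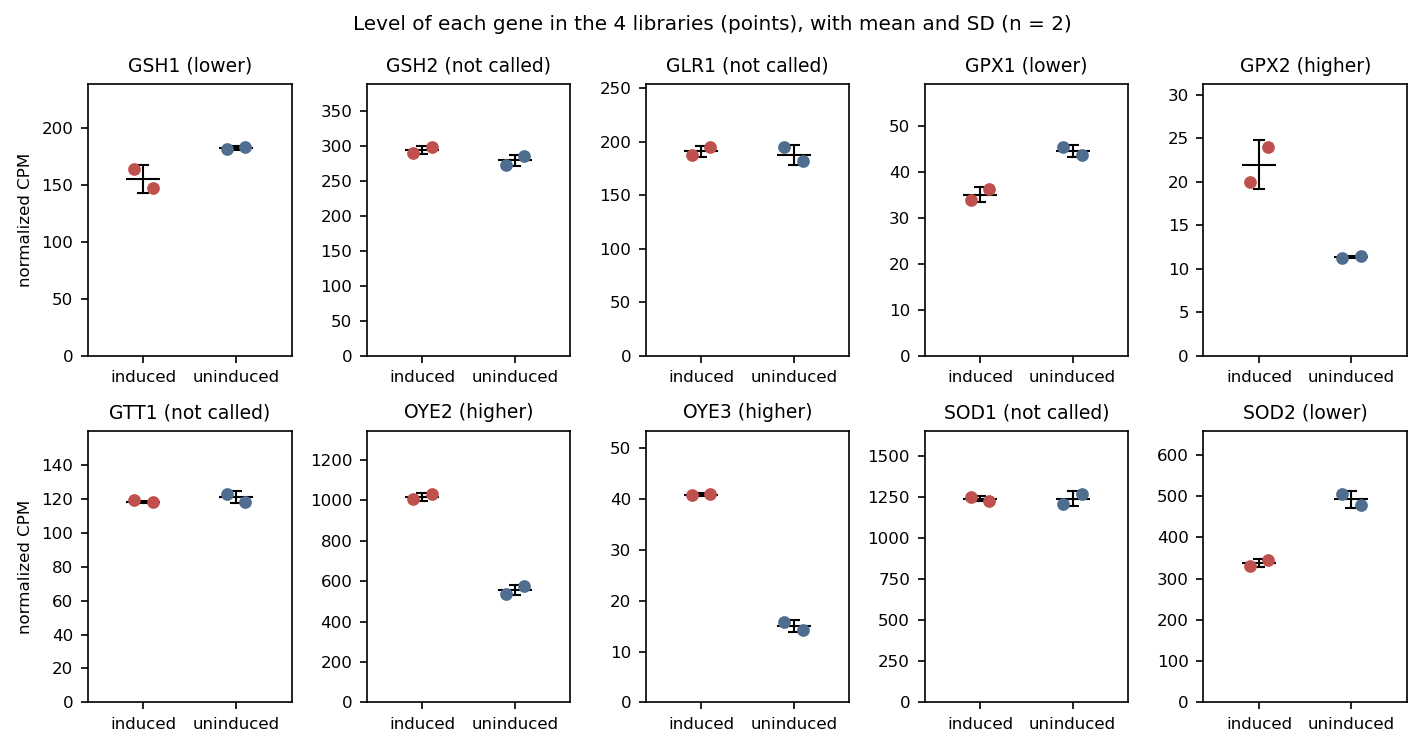
Normalized CPM of each of the 10 genes (vertical axis, starting at 0, with its own range per panel) in the induced libraries (red, left) and the uninduced libraries (blue, right). Points are single libraries and bars are the mean and SD of 2 libraries; the groups stand clear of each other in OYE2, OYE3, GPX2 and SOD2 and overlap in GLR1, GTT1 and SOD1.

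Both old yellow enzyme genes rose, and OYE3 changed most of the 10. OYE3 (YPL171C, minus strand of chromosome XVI, 226169 to 227371 in the R64 build) had 40.8 and 41.1 CPM in the induced libraries, against 15.9 and 14.2 CPM in the uninduced libraries. The induced libraries were nearly equal and both lay far above the uninduced ones. The mean was 40.9 ± 0.246 CPM in induced and 15.1 ± 1.21 CPM in uninduced libraries (SD, n = 2 each), a ratio of means of 2.71. On the log2(CPM + 1) scale, which understates the change of low genes, the difference was 1.38 ± 0.09 (SE; limma adjusted p = 3.53e-08) and ranked 202 from the top among the 6037 genes tested. It was the 1 gene of the 10 with a difference of 1 or more on that scale in either direction.

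OYE2 (YHR179W, plus strand of chromosome VIII, 462502 to 463704) was much the more abundant of the pair, with 1004 and 1033 CPM in the induced libraries, against 538 and 574 CPM in the uninduced libraries. Its mean of 1018 ± 20.6 CPM in induced libraries was 1.83 times the 556 ± 25.2 CPM of uninduced libraries (SD, n = 2 each). The log2 difference was 0.87 ± 0.05 (SE; limma adjusted p = 1.19e-08). Both coding sequences have 1203 bases, and they were identical at 73.5% of aligned positions in the reference. The longest stretch they share without a mismatch is the following 14 bases, shown because the handling of reads that fit both paralogs is not given in the sources used here; it lies at chrXVI:227178-227191 in OYE3 and starts at base 181 of both coding sequences.
OYE3 and OYE2: cgtgctcaaagacc

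Per kilobase of coding sequence, OYE3 stood at 4.06% and 3.98% of the OYE2 level in the induced libraries, against 2.96% and 2.48% in the uninduced libraries. OYE3 thus stayed the minor partner in each library, and its share of the pair was higher in both induced libraries. The summed level of the pair was 1045 and 1074 CPM in the induced libraries, against 554 and 588 CPM in the uninduced libraries. Ratios between members are given as a description and were not tested.

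**Figure D2:**
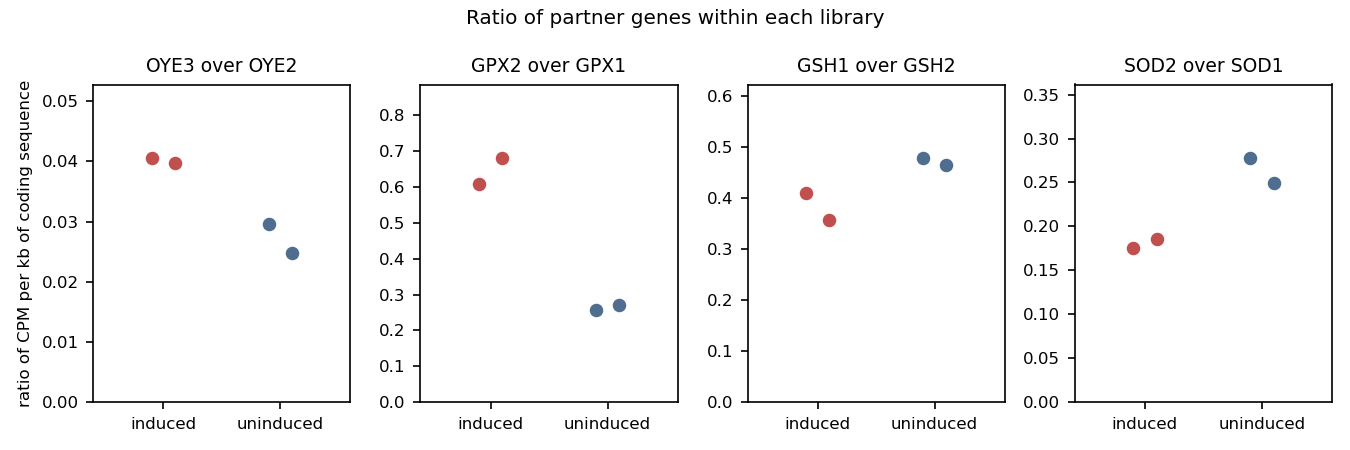
Ratio of CPM per kb of coding sequence between partner genes within each library (vertical axes start at 0), induced libraries in red on the left and uninduced libraries in blue on the right. GPX2 over GPX1 lay at 0.607 and 0.68 in the induced libraries, against 0.257 and 0.272 in the uninduced libraries, and SOD2 over SOD1 was lower in both induced libraries.

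The glutathione peroxidase genes went opposite ways. GPX2 (YBR244W, plus strand of chromosome II, 707528 to 708016), which encodes a phospholipid hydroperoxide glutathione peroxidase, had 20.0 and 24.0 CPM in the induced libraries, against 11.3 and 11.5 CPM in the uninduced libraries. Its mean was 22.0 ± 2.82 CPM in induced and 11.4 ± 0.134 CPM in uninduced libraries (SD, n = 2 each), a ratio of 1.92. The log2 difference was 0.88 ± 0.12 (SE; limma adjusted p = 1.82e-05). GPX2 was counted on 115 to 373 reads per library, the fewest of the 10 genes, and its interval of 0.63 to 1.13 was the widest of the 10.

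GPX1 (YKL026C, minus strand of chromosome XI, 389380 to 389883), a peroxidase of the same kind, had 33.9 and 36.3 CPM in the induced libraries, against 45.4 and 43.6 CPM in the uninduced libraries. It fell by 21.1% in its mean, to 35.1 ± 1.66 CPM in induced libraries, against 44.5 ± 1.28 CPM in uninduced libraries (SD, n = 2 each). The log2 difference was -0.33 ± 0.08 (SE; limma adjusted p = 0.00212). Tested against a change of 1.2-fold, GPX1 did not pass (limma adjusted p = 0.357; the alternatives spanned adjusted p of 0.00122 to 0.357), and the authors' deposited table gave it an adjusted p of 0.321.

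Per kilobase, GPX2 had 60.7% and 68.0% of the GPX1 level in the induced libraries, against 25.7% and 27.2% in the uninduced libraries. GPX1 stayed the higher of the pair in each library. HYR1, also called GPX3, encodes the third peroxidase of the family. It had 166 and 179 CPM in the induced libraries, against 191 and 176 CPM in the uninduced libraries, and was not called (log2 difference -0.09 ± 0.06 SE; limma adjusted p = 0.191); without uninduced library 2 it was called lower (-0.15; limma adjusted p = 0.0453). The summed level of the 3 peroxidase genes was 219.8 and 239 CPM in the induced libraries, against 248 and 231 CPM in the uninduced libraries, so the groups overlapped in the sum.
The coding sequences of GPX2 and HYR1 were identical at 69.5% of aligned positions and those of GPX2 and GPX1 at 57.7%. The longest stretches shared without a mismatch are printed, as for the old yellow enzymes; both lie in the later part of the gene, at chrII:707894-707916 and chrII:707900-707919.
GPX2 and HYR1: ggtatcaaatggaattttgaaaa
GPX2 and GPX1: aaatggaattttgaaaagtt

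Among the superoxide dismutases, the mitochondrial manganese enzyme gene fell and the cytosolic copper-zinc enzyme gene was not called. SOD2 (YHR008C, minus strand of chromosome VIII, 122889 to 123590) had 331 and 344 CPM in the induced libraries, against 506 and 478 CPM in the uninduced libraries. Both induced libraries were well below both uninduced libraries. The mean was 337 ± 9.47 CPM in induced and 492 ± 19.8 CPM in uninduced libraries (SD, n = 2 each), and the log2 difference was -0.54 ± 0.05 (SE; limma adjusted p = 7.24e-07).

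SOD1 (YJR104C, minus strand of chromosome X, 622550 to 623014) had 1250.2 and 1228 CPM in the induced libraries, against 1208 and 1271 CPM in the uninduced libraries. The induced values lay between the uninduced ones. With 12689 to 19117 reads per library it was the most deeply counted of the 10 genes, and the 95% interval of its log2 difference ran from -0.12 to 0.12 (limma adjusted p = 0.998). That interval holds changes of up to 1.09-fold higher and down to 0.919 times, under the authors' scaling. Other scalings gave differences above it: 0.13 with total-count scaling (limma adjusted p = 0.0433) and 0.28 after quantile normalization (limma adjusted p = 9.26e-05). Per kilobase, SOD2 stood at 17.5% and 18.6% of SOD1 in the induced libraries, against 27.8% and 24.9% in the uninduced libraries.

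Of the glutathione synthesis genes, that of the first enzyme had a small fall in transcript level, which was not called in every setting. GSH1 (YJL101C, minus strand of chromosome X, 234320 to 236356), which encodes gamma-glutamylcysteine synthetase, had 164 and 147 CPM in the induced libraries, against 181 and 183 CPM in the uninduced libraries. Induced library 2 was the lowest and the uninduced libraries were nearly equal. The mean was 155 ± 12.3 CPM in induced and 182 ± 1.62 CPM in uninduced libraries (SD, n = 2 each), with a log2 difference of -0.23 ± 0.06 (SE; limma adjusted p = 0.00392). The call was lost without induced library 2 (-0.15, adjusted p = 0.0683), with libraries scaled to their total (-0.10, adjusted p = 0.136) and against a 1.2-fold change (adjusted p = 1), the range over its alternatives being 0.000696 to 1. The authors' deposited table gave it an adjusted p of 0.303.

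GSH2 (YOL049W, plus strand of chromosome XV, 238619 to 240094), which encodes glutathione synthetase of the next step, had 290.1 and 298 CPM in the induced libraries, against 273 and 285 CPM in the uninduced libraries. The induced libraries lay above the uninduced ones. The gap between the groups, from 285 to 290.1 CPM, was smaller than that between the libraries of either group. GSH2 was not called (log2 difference 0.08, 95% interval -0.03 to 0.18; limma adjusted p = 0.186). Per kilobase, GSH1 had 41.0% and 35.7% of the GSH2 level in the induced libraries, against 47.9% and 46.6% in the uninduced libraries.

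GLR1 (YPL091W, plus strand of chromosome XVI, 375502 to 376953), the glutathione reductase gene, had 188 and 195 CPM in the induced libraries, against 195 and 182 CPM in the uninduced libraries. The groups overlapped, and the 95% interval of the log2 difference was -0.09 to 0.14 (limma adjusted p = 0.715). GTT1 (YIR038C, minus strand of chromosome IX, 423809 to 424513), a glutathione transferase gene of the endoplasmic reticulum, had 119 and 118 CPM in the induced libraries, against 123 and 118 CPM in the uninduced libraries. Its groups overlapped too, with a 95% interval of -0.14 to 0.09 (limma adjusted p = 0.69). The other transferase gene of that name, GTT2, was at 48.2 and 47.0 CPM in the induced libraries, against 25.4 and 26.9 CPM in the uninduced libraries, and rose (log2 difference 0.84 ± 0.08 SE; limma adjusted p = 8.87e-07). Whether GTT1 and GTT2 differ in their response was not tested.

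With libraries scaled to their total reads in place of the authors' scaling, the median of all genes moved up by 0.12 on the log2 scale, and 60.0% of all calls lay on the higher side (49.1% as the authors scaled them). In that setting GSH2 (0.20), GLR1 (0.15) and SOD1 (0.13) were called higher, beside that median of 0.12, and after quantile normalization GSH2 (0.18) and SOD1 (0.28) were called higher as well. OYE2, OYE3, GPX2 and SOD2 kept their direction and their call in all 15 alternative settings. Against a 1.2-fold change those 4 of the 10 genes passed, where 44.5% of all genes tested did. In the authors' deposited table the same 4 genes had an adjusted p under 0.05, from 3.26e-08 for OYE3 to 0.0129 for SOD2, where 38.4% of its rows did.

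**Figure D3:**
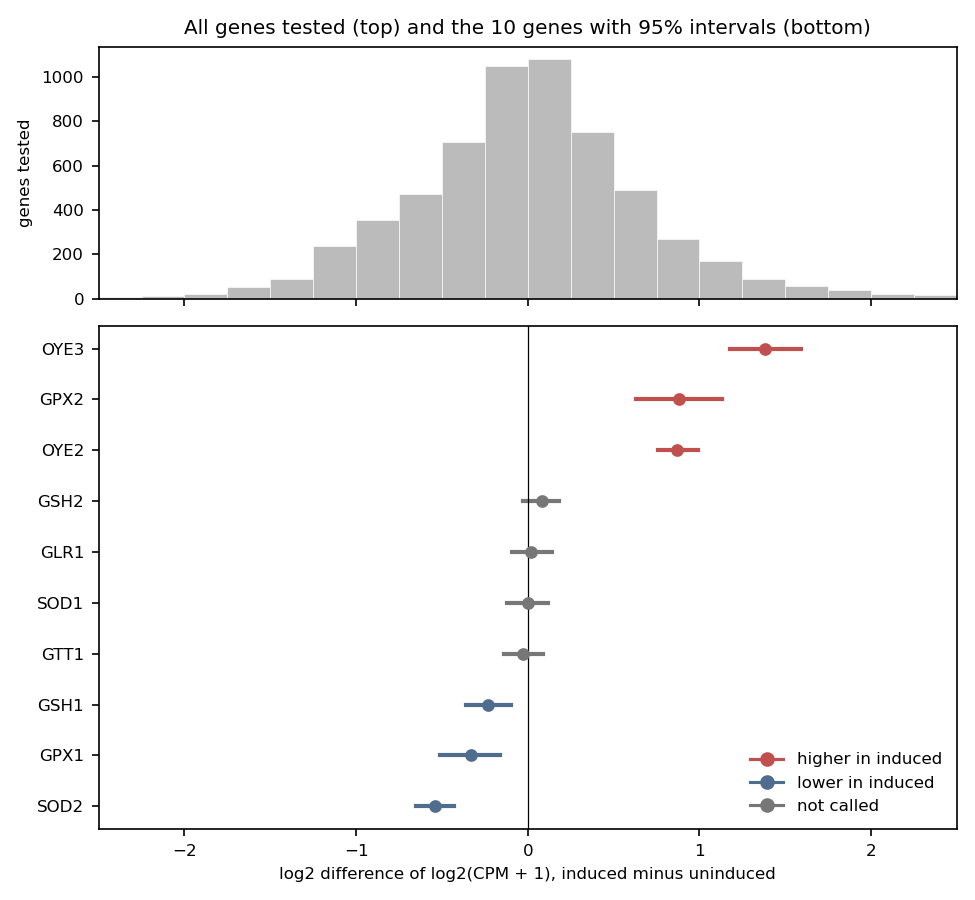
Difference in log2(CPM + 1), induced minus uninduced, for all 6037 genes tested as a histogram (top) and for each of the 10 genes with its 95% interval from limma (bottom; red called higher, blue called lower, grey not called). The axis stops at 2.5 in both directions, which leaves out 48 genes; OYE3 lies at 1.38, and the intervals of GSH2, GLR1, SOD1 and GTT1 cross 0.

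Levels per kilobase of coding sequence ordered the 10 genes almost alike in both groups. In the induced libraries SOD1 averaged 2665 CPM per kb, OYE2 847, SOD2 481, GSH2 199, GTT1 168, GLR1 132, GSH1 76.3, GPX1 69.7, GPX2 44.9 and OYE3 34.0 CPM per kb. In the uninduced libraries SOD1 averaged 2666 CPM per kb, SOD2 701, OYE2 462, GSH2 189, GTT1 171, GLR1 129.7, GSH1 89.4, GPX1 88.3, GPX2 23.4 and OYE3 12.5 CPM per kb. OYE2 was thus above SOD2 in the induced libraries and below it in the uninduced libraries, and no other pair changed places. GSH1 and GPX1 did not differ beyond their spread in the uninduced libraries, where GSH1 had 88.8 and 89.9 and GPX1 90.1 and 86.5 CPM per kb. The 10 genes summed to 3439.9 and 3464 CPM in the induced libraries, against 3097 and 3161 CPM in the uninduced libraries, and OYE2 had the largest difference in CPM of the 10.

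Most of the genes also share a short sequence upstream. The motif of Yap1 searched for reads TTACTAA on either strand, so that a match on the strand opposite to the gene appears as TTAGTAA. In the window from 500 to 51 bases before the start codon in the R64 reference, 7 of the 10 genes held at least 1 match, against 620 of 6000 such windows over the genome (10.3%). As Yap1 is known for switching on many of these genes, the count of 7 of 10 is no independent result. OYE3 and GPX2 had 2 matches each, and OYE2, GLR1, GTT1, SOD1 and SOD2 had 1 each. Matches thus stood upstream of all 3 genes that rose, of 3 genes that were not called and of SOD2, which fell. Over all genes tested with a window, 10.2% of those called higher, 10.6% of those called lower and 10.5% of those not called held a match.

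Sites are given for the 3 genes that rose and for both dismutase genes, since these hold the motif at a rise, at no call and at a fall. Each is written 5′ to 3′ on the strand of its gene, in capitals for the motif and with 15 bases to each side.
OYE3, 212 bases before the start codon, chrXVI:227562-227598: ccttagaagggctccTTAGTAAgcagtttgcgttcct
OYE3, 148 bases before, chrXVI:227498-227534: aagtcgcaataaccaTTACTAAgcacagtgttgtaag
OYE2, 327 bases before, chrVIII:462160-462196: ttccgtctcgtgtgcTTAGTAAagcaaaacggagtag
GPX2, 417 bases before, chrII:707096-707132: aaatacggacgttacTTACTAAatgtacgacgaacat
GPX2, 260 bases before, chrII:707253-707289: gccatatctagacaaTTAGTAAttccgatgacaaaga
SOD1, 149 bases before, chrX:623142-623178: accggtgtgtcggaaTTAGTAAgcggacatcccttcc
SOD2, 266 bases before, chrVIII:123835-123871: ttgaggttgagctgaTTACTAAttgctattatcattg

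The 3 genes that lacked this match, GSH1, GSH2 and GPX1, held other motifs. The stress motif AGGGG of Msn2 and Msn4 was found upstream of 5 genes, GPX1, GPX2, GTT1, SOD1 and SOD2, where 31.5% of all windows held it on either strand. CACGTG, bound by Cbf1, stood upstream of GSH1, at a pair of places, and of SOD2, where 5.93% of all windows held it. GAANNTTC of Hsf1 was found in the GSH2 window (18.1% of all windows). TGACTCA of Gcn4 and CAGCGTG of Hac1 had no match in any of the 10 windows, against 3.77% and 2.12% of all windows. No match of another motif lay on a match of TTACTAA. The windows of GSH2, GLR1 and GPX1 reach into the neighbouring genes GAL11, SSU1 and PAN3.

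**Figure D4:**
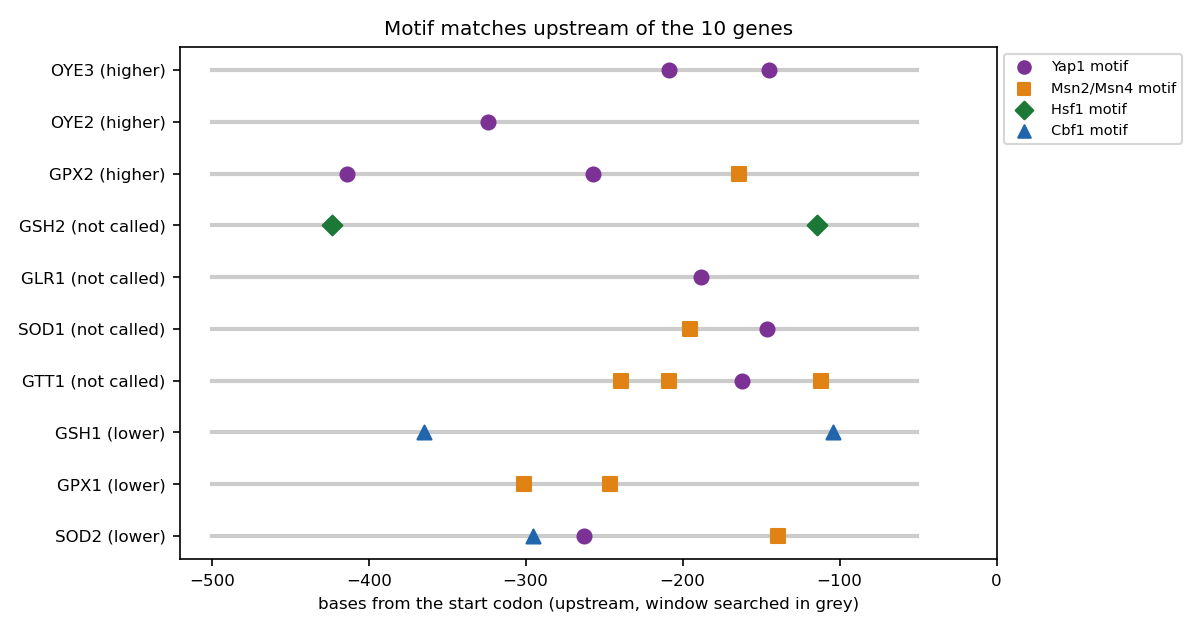
Motif matches on either strand between 500 and 51 bases before the start codon (grey lines; horizontal axis in bases, with the start codon at 0) for the 10 genes, ordered from the largest rise at the top to the largest fall at the bottom. Purple circles mark the Yap1 motif in 7 genes, orange squares the Msn2 and Msn4 motif in 5, blue triangles the Cbf1 motif in 2 and green diamonds the Hsf1 motif in 1.

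Other genes of these pathways were taken from 8 lists, which hold 107 genes besides the 10, of which 106 were tested. In all, 60 of the 106 rose and 29 fell, with a median log2 difference of 0.22, where 35.6% of all genes tested were called higher and 37.0% lower. Tested against a 1.2-fold change, 35 of the 106 were called higher and 20 lower, where 1286 and 1399 of all 6037 genes were. The counts of the single lists are descriptions and are to be read against the same background.
The list of other glutathione enzymes and transporters holds glutaredoxins, further transferases, glyoxalases, glutathione breakdown enzymes and glutathione carriers. It had 21 of 29 genes higher and 5 lower, with a median of 0.35 (35.6% of all genes higher, 37.0% lower). Fewer of these genes, in both directions, had an adjusted p under 0.05 in the authors' deposited table. They were GTT2, ECM4, GTO3, GRX3, GRX7, GRX8, DUG3, SFA1 and YJL068C, higher, and GRX4 and OPT1, lower. Their share of the list is near the 38.4% of all rows with such a p, so by that table it is no result about the list. GRX8, a glutaredoxin gene, had 21.3 and 17.3 CPM in induced libraries, against 7.51 and 8.52 CPM in uninduced libraries. GRX3, a monothiol glutaredoxin gene that acts in iron handling, had 299 and 325 CPM in induced libraries, against 140.0 and 153 CPM in uninduced libraries, and the transferase gene GTO3 had 6.82 and 6.36 CPM in induced libraries, against 3.43 and 2.10 CPM in uninduced libraries. Those were the 3 largest changes of that list, all of them rises.

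Of 6 genes that supply cysteine, 3 rose and 2 fell (median 0.12). MET17, which makes homocysteine from sulfide, rose to 1182 ± 114 CPM in induced libraries, against 549 ± 64.1 CPM in uninduced libraries (SD, n = 2 each). YCT1, a cysteine transporter gene, fell to 21.7 ± 1.25 CPM in induced libraries, against 49.7 ± 1.91 CPM in uninduced libraries, and CYS4, cystathionine beta-synthase, to 327 and 316 CPM in induced libraries, against 539.6 and 533 CPM in uninduced libraries. Of 19 genes of NADPH supply, the reductant of Glr1 and the old yellow enzymes, 9 rose and 8 fell (median 0.07). The counts of both lists lie near what the 35.6% higher and 37.0% lower of all genes would give, and are no result about these lists. IDP2, the cytosolic isocitrate dehydrogenase gene, rose to 78.5 ± 7.37 CPM in induced libraries, against 23.1 ± 2.71 CPM in uninduced libraries. RKI1 of the pentose phosphate pathway fell to 7.88 and 7.97 CPM in induced libraries, against 30.7 and 35.0 CPM in uninduced libraries, and the malic enzyme gene MAE1 to 79.9 and 79.8 CPM in induced libraries, against 251 and 267 CPM in uninduced libraries.

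In the list of metal supply for the dismutases 5 of 12 genes rose and 4 fell (median 0.16), also near the all-gene shares of 35.6% higher and 37.0% lower. CTR1, the high-affinity copper importer gene, fell to 124 and 134 CPM in induced libraries, against 345 and 365 CPM in uninduced libraries. The metallothionein genes CUP1-1 and CUP1-2, near-identical copies whose reads cannot be assigned with certainty, fell by 1.72 and 1.73 on the log2 scale. Among 3 other peroxide enzymes, the cytosolic catalase gene CTT1 fell to 230.0 and 237 CPM in induced libraries, against 754 and 700.0 CPM in uninduced libraries. The peroxisomal catalase gene CTA1 rose to 20.3 and 20.3 CPM in induced libraries, against 11.7 and 9.72 CPM in uninduced libraries, and CCP1, mitochondrial cytochrome c peroxidase, to 510.0 and 509 CPM in induced libraries, against 339.6 and 353 CPM in uninduced libraries.

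Of 9 other flavin and aldehyde reductase genes tested, 7 rose and the other 2, ZTA1 and ADH6, were not called (median 0.62), against 35.6% of all genes called higher and 37.0% lower. ADH7, an NADPH-dependent alcohol dehydrogenase gene, had 19.2 and 17.8 CPM in induced libraries, against 4.22 and 3.61 CPM in uninduced libraries. YML131W rose to 162 and 153 CPM in induced libraries, against 72.0 and 64.7 CPM in uninduced libraries, and ARI1, an aldehyde reductase gene, to 421 and 418 CPM in induced libraries, against 230.4 and 240.2 CPM in uninduced libraries. Of 15 other genes listed as Yap1 targets, 9 rose and 3 fell beside the same all-gene shares, and the list's median was 0.18. Of the rises, TRX2, TRR1 and YNL134C had adjusted p of 0.148, 0.523 and 0.572 in the authors' deposited table. The falls, TSA2, AHP1 and SRX1, all had an adjusted p under 0.05 there. The peroxiredoxin gene TSA2 fell to 27.6 and 27.4 CPM in induced libraries, against 100.2 and 98.3 CPM in uninduced libraries. YKL071W rose by 1.33 on the log2 scale, and AAD15, of an aryl alcohol dehydrogenase family whose members share sequence, by 1.27. AAD4, AAD6 and AAD14 of that family were called higher too, so several of the list's rises come from genes that share sequence. TTACTAA was found upstream of 10 of the 14 genes of that list with a window, against 10.3% of windows over the genome. As the list was chosen for Yap1, that count is no independent result. The flavin and aldehyde reductases held the match in 1 of 10 windows, the other glutathione enzymes and transporters in 8 of 29 and NADPH supply in 0 of 19.

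Of 13 regulator genes, 4 rose and 6 fell (median -0.21), where all genes stood at 35.6% higher and 37.0% lower. MSN4, a general stress factor gene, fell to 143 and 132 CPM in induced libraries, against 385 and 404 CPM in uninduced libraries. CBF1 and GCN4, factors of sulfur and amino acid synthesis, fell by 0.72 and 0.67 on the log2 scale. YAP1 itself had 248 and 239 CPM in induced libraries, against 207 and 200.4 CPM in uninduced libraries, a log2 difference of 0.26 ± 0.05 (SE; limma adjusted p = 0.000424). The call did not hold against a 1.2-fold change (limma adjusted p = 0.817), and the authors' deposited table gives an adjusted p of 0.267 for YAP1.

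**Figure D5:**
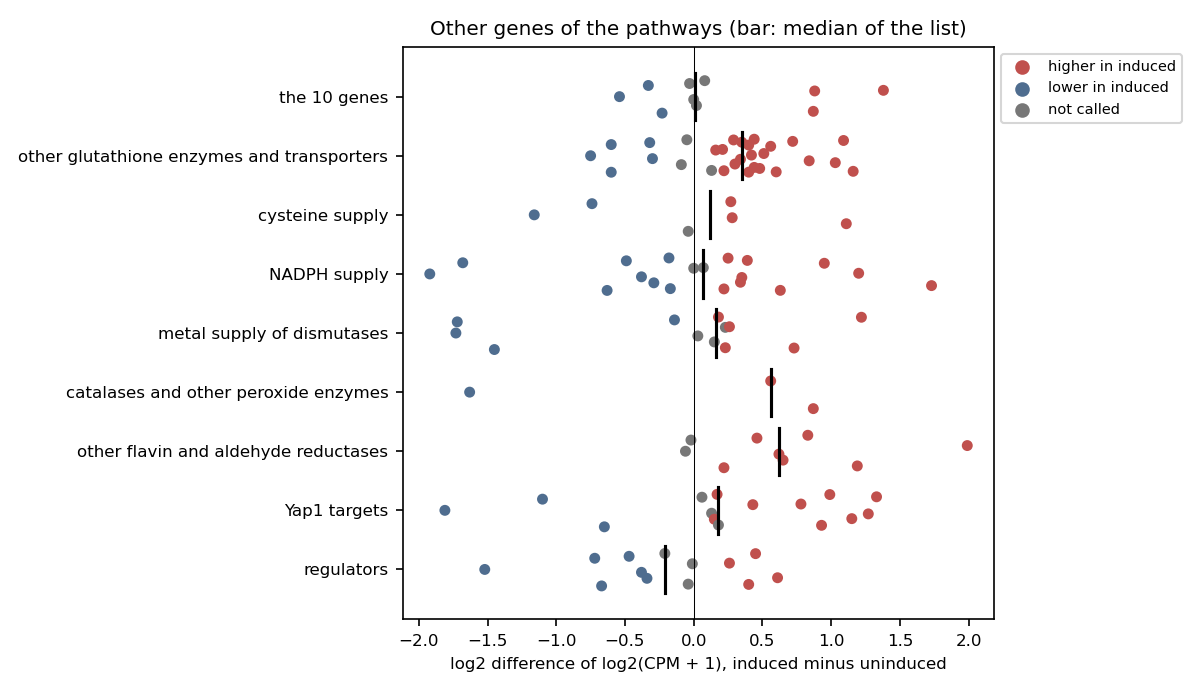
Difference in log2(CPM + 1), induced minus uninduced, for the 10 genes (top row) and for each tested gene of 8 lists of related genes (red called higher, blue called lower, grey not called; the black bar is the median). In the row of flavin and aldehyde reductases 7 of 9 points are red and none is blue, where 35.6% of all genes tested were called higher and 37.0% lower, while the rows of NADPH supply and of metal supply spread to both sides of 0.

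The profile of OYE3 over the 4 libraries was set beside those of 5573 others that averaged at least 5 CPM, by the Euclidean distance of log2(CPM + 1) values centred on each gene's mean. The nearest were MGS1 (distance 0.037), SIP18 (0.044), YEL043W (0.049), MGR1 (0.067) and YHR112C (0.069). With 2 groups of 2 libraries, this distance mostly reflects a rise of like size: the log2 differences of these 5 genes ran from 1.32 to 1.39.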

How the data were processed

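RNA of 4 cultures was sequenced after hot acid phenol extraction, with a stranded TruSeq mRNA kit on a HiSeq instrument, per the labels' protocols. TopHat2 2.0.13, HTSeq and edgeR, with the builds sacCer3 and R64, are listed in the submitters' processing notes, which give no role for each; the annotation release, strand setting and filters: not given in the sources used here. The deposited values per library are a normalized signal, headed CPM, whose columns sum to 945865 to 1041888. All values (100%) divided evenly, within 0.001 reads, by the smallest value of their column, so reads were recovered; in uninduced library 2 the step of 0.1002 lies near a round decimal, which makes it weaker evidence. The deposited log2 fold change, whose base was judged from its values, and p-values of the authors are quoted as theirs.

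The fit was limma 3.58.1 (R 4.3.3) with two-sided tests and an intensity trend, run on log2(CPM + 1) by group alone and adjusted over 6037 genes; 745 rows with a mean under 1 CPM were left out. DESeq2 1.42.0 and edgeR 4.0.16 on recovered reads were alternatives. Each of the 3 tools was also run on simulated reads, with far fewer changed genes than were called here and the same spread setting for every gene. As that setting differs from these data, the run cannot show how many of the calls are false. P-values rest on 2 cultures a group, called biological replicates in the design text. With so few cultures, limma draws the variance of a gene in part from other genes of like level. Without the intensity trend the limma adjusted p was 0.000174 for OYE2 and 8.89e-05 for OYE3, against 1.19e-08 and 3.53e-08 with it. The counts of replicate cultures differed beyond sampling noise (chi-square per degree of freedom 4.83 for induced, 4.56 for uninduced). The genes, lists and motifs were chosen with earlier results of these data known. List genes were named as the 3 called members with the largest absolute difference; HYR1, GTT2, YAP1, ZTA1 and ADH6 were named after their values were seen. Sequences and coordinates were read from the RefSeq R64 genome and annotation, in which none of the 10 genes overlaps another gene and each has 1 coding exon; coding sequences were aligned globally with Biopython 1.88.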

Additional observations from a re-analysis of the deposited data

How the results depend on the processing

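Of 584 values of single named genes under an alternative, 561 kept their direction and their call. All 24 list genes named for their size of change did so in every alternative that gave a value. Those 24 were picked as the largest called changes in these same libraries, which made that outcome likely beforehand. The count of the 10 genes called higher was 3, against 6 with total-count scaling and 5 after quantile normalization. Of all genes tested, 2152 of 6037 were called higher, against 2664 of 6043 and 2162 of 6037 in those settings. The count of the 10 genes called lower was 3, against 1 when tested against a 1.2-fold change. That test also left 35 of the 60 list genes called higher, and over all genes 1286 higher and 1399 lower, as its construction demands a larger change. SOD1 changed sign with total-count scaling (0.13), after quantile normalization (0.28) and with edgeR (0.01), and GTT1 with total-count scaling (0.10); the cause was not tested beyond the shift of all genes by 0.12 under that scaling. Of the genes named after their values were seen, total-count scaling turned HYR1 (0.04), ZTA1 (0.06) and ADH6 (0.11), quantile normalization turned ADH6 (0.07), and leaving out uninduced library 1 turned ZTA1 (-0.15 to 0.02 over the 4 libraries left out in turn), none of them called; HYR1 was called without uninduced library 2 (limma adjusted p = 0.0453, against 0.191 with it). YAP1 was not called against a 1.2-fold change (limma adjusted p = 0.817). Leaving out 1 library at a time gave -0.03 to 0.07 for GLR1, -0.04 to 0.04 for SOD1 and -0.05 to 0.00 for GTT1, none of them called.

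The labels give both groups the replicate numbers 1 and 2 without saying what a number marks, and the deviations of the libraries numbered 1 correlated across 6037 genes at r = -0.14. With a replicate block 3 of the 10 genes were called higher and 3 lower, and over all genes 2219 and 2293. With the pairing crossed, an alternative chosen after seeing the data, 3 and 3 of the 10 genes and 2162 and 2237 of all genes were called. Depth limits GPX2 and OYE3 most, at 115 and 142 reads in their shallowest library.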
